A study of Homo sapiens with 24 samples.

Results

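NR3C1, the gene of the glucocorticoid receptor, was examined with 6 genes of the response to glucocorticoids, FKBP5, FKBP4, TSC22D3, SGK1, KLF9 and DUSP1. These 7 genes were chosen by name among the 23106 gene symbols counted in every library. The study put NR3C1 among the genes raised by both of its stimuli in these same libraries. It also reported NR3C1 as bound by both HIF and AHR in RCC4+VHL cells. The question here was whether the genes around the receptor moved with it.

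The libraries came from RCC4+VHL cells, a clone of a renal carcinoma line in which VHL was restored by stable transfection with pcDNA3-VHL. There were 4 groups of 6 libraries. Cells in normoxia + DMSO received 0.1% DMSO, the vehicle, for 6 h at 21% oxygen, and cells in normoxia + ITE received 100 nM ITE, a ligand that activates AHR, for the same 6 h. Cells in hypoxia + DMSO and in hypoxia + ITE had the same treatments for 6 h at 0.5% oxygen. All groups shared the restored VHL and about 48 h of growth before treatment in medium without phenol red and with serum treated with dextran-coated charcoal, which removes steroids. The labels name no added glucocorticoid, hormone levels were not measured, and no comparison here is a response to hormone.

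The glucocorticoid receptor is a transcription factor that waits in the cytoplasm, bound to the chaperone HSP90. FKBP4 and FKBP5 are co-chaperones that compete for a place on HSP90. FKBP4 links the complex to transport along microtubules, and FKBP5 lowers the affinity of the receptor for hormone. With hormone, the receptor moves to the nucleus and raises genes that include FKBP5 itself, TSC22D3, SGK1, KLF9 and DUSP1. Several of these genes also answer to signals that do not pass through the receptor, such as growth factors, cell stress and MAP kinases.

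The promoter sequences show which of the letters bound by HIF, AHR and the glucocorticoid receptor lie close to these genes. RefSeq windows from 250 bases before to 50 bases after a start site were placed by exact match on GRCh37, 18 windows for 6 of the 7 genes. FKBP4 had no window. Searched on both strands were the HIF core ACGTG, the AHR core GCGTG, the receptor half-site AGAACA and the receptor palindrome core ACANNNTGT. Of 35116 windows of the same length, 21.4% held the HIF core, 36.5% the AHR core, 14.8% the half-site and 5.37% the palindrome core.

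NR3C1 lies on chromosome 5 (GRCh37 chr5:142657496-142815077, minus strand) and has 7 windows. The AHR core was in 4 of them and the HIF core, the half-site and the palindrome core in 0 of 7. The window of the start site at position 142783251 held the AHR core 4 times before the start site. These 4 stretches of 25 bases are shown because NR3C1 was higher with ITE, with the core or its reverse complement in capitals and the name giving the distance of its first base from the start site.

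NR3C1 at -214, chr5:142783451-142783475: gcggggcggcCACGCcaggggacgc

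NR3C1 at -197, chr5:142783434-142783458: ggggacgcggGCGTGcaggcgccgt

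NR3C1 at -151, chr5:142783388-142783412: cgcgcggaggGCGTGggggcaggga

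NR3C1 at -30, chr5:142783267-142783291: gagtgggagcGCGTGtgtgcgagtg

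DUSP1 lies on the same chromosome (chr5:172195099-172198198, minus strand). Its single window held the HIF core on each strand, starting 108 and 107 bases before the start site and overlapping by 4 bases, and none of the other motifs. Together the matches form CACGTG, which reads the same on both strands, so they are a single site. The 250 bases before the start site are given in full, with these letters in capitals, because DUSP1 passed the test with hypoxia.

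DUSP1, chr5:172198199-172198448: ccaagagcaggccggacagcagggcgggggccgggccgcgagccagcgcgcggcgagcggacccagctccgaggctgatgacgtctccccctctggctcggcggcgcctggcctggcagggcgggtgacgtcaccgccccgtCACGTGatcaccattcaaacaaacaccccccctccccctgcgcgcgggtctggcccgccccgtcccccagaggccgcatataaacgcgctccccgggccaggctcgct

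FKBP5 (chr6:35541362-35696360, minus strand) held the same 6 letters in 1 of its 2 windows, together with an AHR core, and the half-site in the other. It is shown for comparison with DUSP1, since its level did not pass the test in any comparison.

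FKBP5 at -226, chr6:35656904-35656928: agggccagacACGTGggctggcgtg

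Over the 18 windows the HIF core was in 3, the AHR core in 8, the half-site in 2 and the palindrome core in 2, the last both of TSC22D3. Those 2 windows of TSC22D3 overlap, and the palindrome core is the same stretch of the genome counted in each. They share an AHR core in the same way. A match is a run of letters, and binding was not measured in these libraries. In the study's ChIP-seq of RCC4+VHL cells, NR3C1 was the closest gene to both a HIF and an AHR site. Those sites need not lie in these windows.

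Total counts per library ran from 770094 to 93851342, and levels are given as CPM, which are read counts over a library size scaled by the TMM method. The floor of 3 counts was worth up to 4.12 CPM (hypoxia + DMSO replicate 2) and covers counting error only. Of 8 renal epithelial and renal carcinoma markers, 7 were above 1 CPM on average, PAX8 among them with group means from 225 to 274 CPM, while CA9 was at 0 in 23 of 24 libraries. Of 9 markers of other cell types, PTPRC, CD3E and PECAM1 were each at 0 in 23 libraries, and the summed level of all 9 ran from 10.8 to 50.7 CPM in normoxia + DMSO, from 10.9 to 15.4 in normoxia + ITE, from 5.50 to 18.8 in hypoxia + DMSO and from 10.7 to 32.8 in hypoxia + ITE. The 2 that averaged above 1 CPM were CD68 and COL1A1. The sum of 50.7 was that of normoxia + DMSO replicate 4, with COL1A1 at 27.1 CPM and DES at 8.91. That library also held the only reads of PTPRC, PECAM1 and CA9, and it was kept in the main analysis. The part of the sum in the results was not tested. The check genes of both stimuli rose. CYP1B1, an AHR target, rose 5.68-fold with ITE in normoxia and NDRG1, a HIF target, rose 9.51-fold with hypoxia in DMSO (edgeR adjusted p = 7.64e-09 and 5.68e-15). Hypoxia + ITE replicate 6 stood apart. The median absolute difference of its log2 CPM from the rest of its group was 0.75, against at most 0.43 in the other 23 libraries, and its level of VHL, the restored gene, was 701 CPM. Differences that rest on hypoxia + ITE are therefore given also without it. For some, values without 3 doubted libraries are added, which are this one, hypoxia + DMSO replicate 2 and hypoxia + ITE replicate 1, the last a library of 1357702 counts. The last 2 are the shallowest libraries, with limma quality weights of 1.18 and 1.10. Hypoxia + ITE replicate 3 (0.17) and hypoxia + DMSO replicate 1 (0.25) had lower weights and were kept.

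Of the 7 genes, 6 passed the filter on low counts and were among the 11735 genes tested. KLF9, a zinc finger repressor, did not pass. It had 0 to 83 counts per library and was at 0 in 3 libraries. Its medians were 0.62 in normoxia + DMSO, 0.49 in normoxia + ITE, 0.59 in hypoxia + DMSO and 0.29 CPM in hypoxia + ITE. The groups overlapped, and a change of KLF9 was not detectable at this depth. Fitted without the filter, its log2 fold change was 0.03 with ITE in normoxia, 0.39 with hypoxia in DMSO, -0.66 for hypoxia with ITE, -1.02 for ITE in hypoxia and -0.63 with both stimuli against neither. Every one of these had a 95% interval that held 0, such as -2.33 to 0.30 for ITE in hypoxia.

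Per length, the order of levels in normoxia + DMSO was DUSP1, FKBP4, FKBP5, NR3C1, SGK1, TSC22D3 and KLF9. With the union of exons as the length, mean levels were 68.5 ± 9.9 CPM per kb for DUSP1, 33.5 ± 2.8 for FKBP4, 11.7 ± 1.5 for FKBP5 and 7.30 ± 0.55 for NR3C1. They were 5.37 ± 0.50 CPM per kb for SGK1, 2.62 ± 0.43 for TSC22D3 and 0.116 ± 0.076 for KLF9 (SD, n = 6 each). No neighbours in this order overlapped across the 6 libraries. The receptor was in the middle of its set. With the longest transcript as the length, SGK1 at 9.77 CPM per kb came before NR3C1 at 9.18 and the libraries of the pair overlapped, so their order depends on the transcript model. In hypoxia + DMSO, NR3C1 (9.89 ± 1.25 CPM per kb) overlapped with FKBP5 (9.76 ± 2.66), FKBP5 with SGK1, and SGK1 with TSC22D3.

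**Figure D1:**
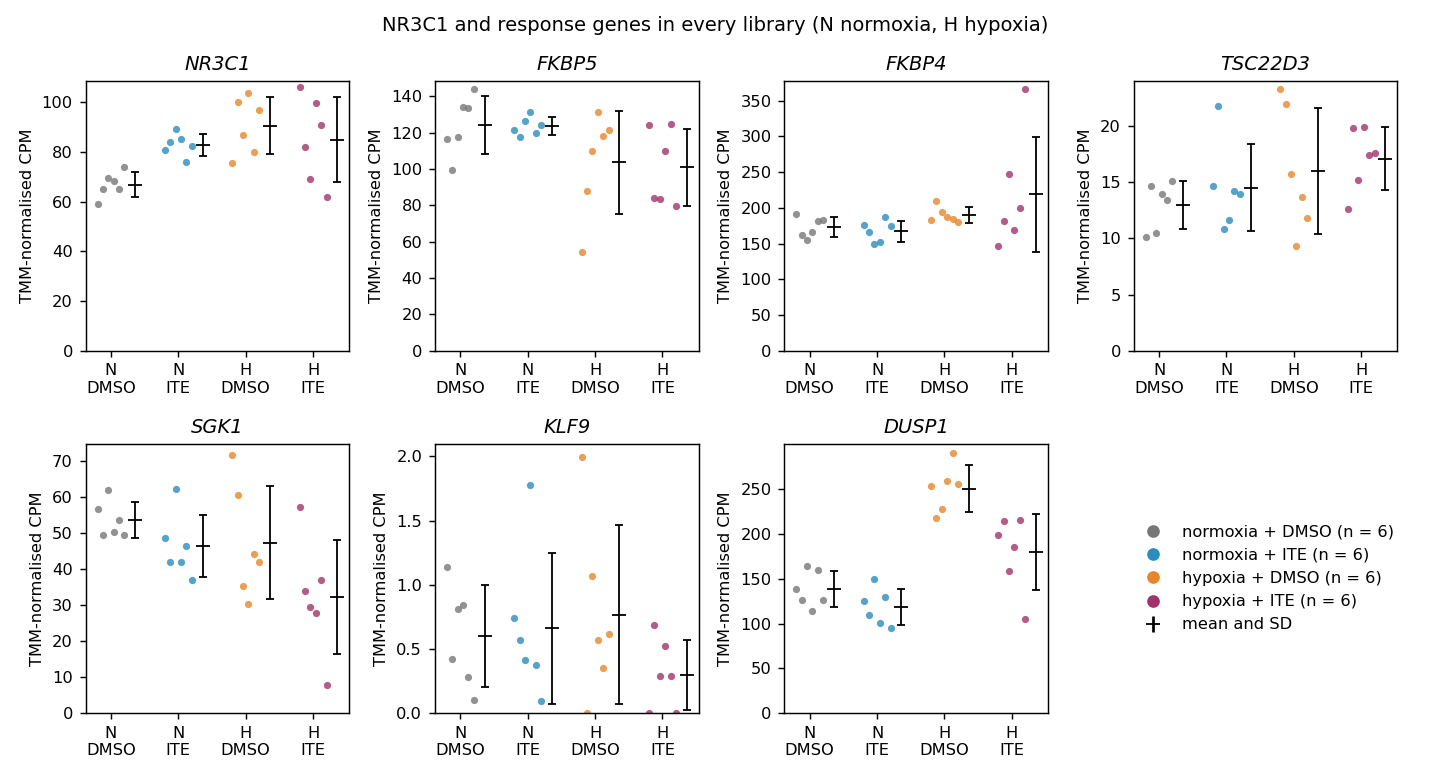
Level of each of the 7 genes in TMM-normalised CPM (vertical axes, from 0, 1 scale per gene) in every library of the 4 groups (horizontal axes); points are libraries and black bars the mean and SD of 6. DUSP1 in hypoxia + DMSO (217 to 290 CPM) sits above all normoxia libraries, whereas FKBP5 and TSC22D3 overlap between all groups.

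NR3C1 was higher with either stimulus alone, and its median with both lay between those with each alone. The study reports an additive effect of both stimuli over its common targets as a set, and NR3C1 is in that set. Fewer cells of a kind and less RNA per cell cannot be told apart in bulk samples. In normoxia + DMSO the level of NR3C1 ran from 59.1 to 74.0 CPM with a median of 66.8. In normoxia + ITE it ran from 75.9 to 89.1 CPM with a median of 83.1, and no library overlapped with normoxia + DMSO. In hypoxia + DMSO it ran from 75.7 to 104 CPM with a median of 91.8, again without overlap. Groups without overlap and higher were found for 0.477% of tested genes in the comparison of ITE in normoxia and for 1.8% in that of hypoxia with DMSO, and nothing is read from these shares, since NR3C1 was chosen in the same comparisons.

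The log2 fold change of NR3C1 was 0.31 ± 0.12 (SE) with ITE in normoxia, a fold of 1.24 (95% interval 1.05 to 1.46), and 0.43 ± 0.12 with hypoxia in DMSO, a fold of 1.35 (1.14 to 1.59). The study chose NR3C1 for these differences in these libraries, so they are a description and no p-value is given. In hypoxia + ITE its level ran from 62.0 to 106 CPM with a median of 86.5, and the group overlapped with all others. Replicate 6 was the lowest.

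With the second stimulus added to the first, the log2 fold change of NR3C1 was 0.03 ± 0.12 for hypoxia with ITE (edgeR adjusted p = 0.918) and -0.09 ± 0.12 for ITE in hypoxia (adjusted p = 0.819). These values were 0.10 and -0.02 without hypoxia + ITE replicate 6. With both stimuli against neither it was 0.34 ± 0.12, a fold of 1.26 with a 95% interval from 1.07, which did not pass the test (edgeR adjusted p = 0.116). It passed in DESeq2 (0.34, adjusted p = 0.0408), with sample quality weights (0.44, limma adjusted p = 0.000454) and without hypoxia + ITE replicate 6 (0.40, edgeR adjusted p = 0.0253). It did not pass without the 3 doubted libraries (0.35, edgeR adjusted p = 0.059), and over the alternatives the adjusted p reached 0.55. The effect of ITE was smaller in hypoxia than in normoxia by 0.40 ± 0.17 on the log2 scale, and by 0.32 without hypoxia + ITE replicate 6. That difference contains both of the differences that chose the gene, so it is a description and no p-value is given. The other 3 comparisons each share a group of libraries with the choice as well, so their p-values are not free of it. For both stimuli against neither the shared group is normoxia + DMSO, the reference of the choice. Nothing is concluded from the p-values of that comparison, whether they passed or not.

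**Figure D2:**
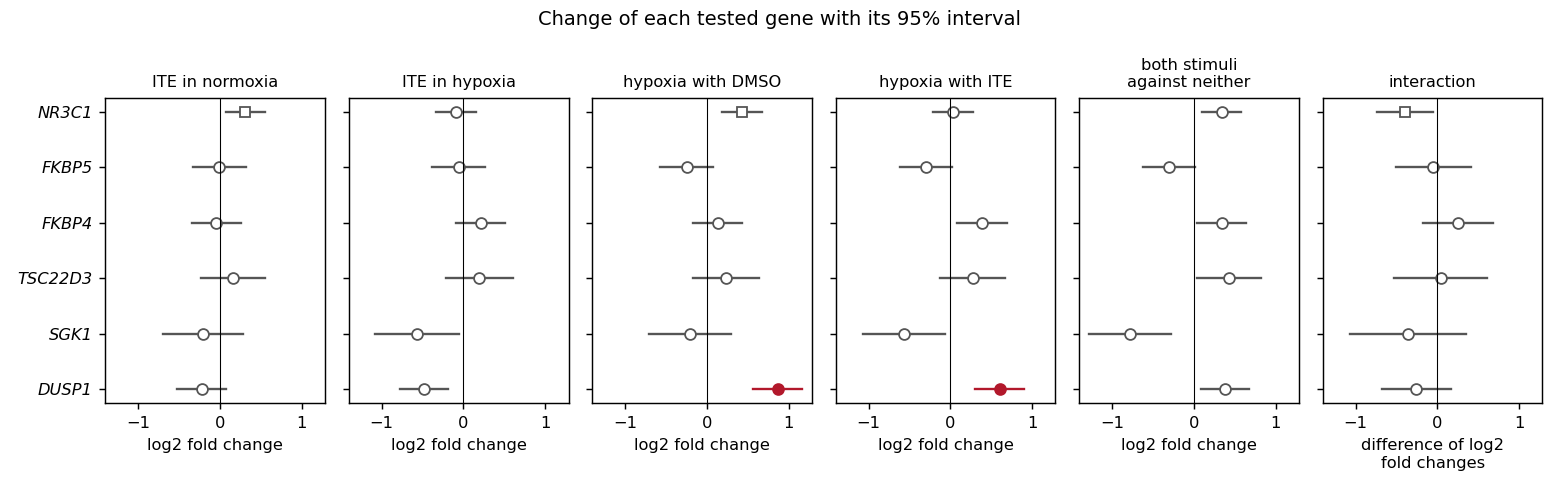
Log2 fold change (horizontal axes, same scale) of each of the 6 tested genes in 5 comparisons and, at the right, the difference between the ITE effects in hypoxia and normoxia; lines are 95% intervals, red filled points passed an adjusted p of 0.05, and squares mark NR3C1 where its choice used that difference or a part of it. DUSP1 with hypoxia (0.86 with DMSO, 0.60 with ITE) holds the 2 red points.

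The co-chaperones of the receptor did not pass the test in any comparison. FKBP5, which is both a partner and a target of the receptor, ran from 99.4 to 144 CPM in normoxia + DMSO, with a median of 126. Its range in normoxia + ITE was 118 to 132 CPM, with a median of 123. It ran from 54.2 to 131 CPM (median 114) in hypoxia + DMSO and from 79.4 to 125 (median 96.8) in hypoxia + ITE. The 4 groups overlapped, and the lowest value was that of hypoxia + DMSO replicate 1.

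With ITE in normoxia the log2 fold change of FKBP5 was -0.01 ± 0.16, and its 95% interval allows folds from 0.797 to 1.24. With hypoxia in DMSO it was -0.25 ± 0.16 (edgeR adjusted p = 0.666), with an interval of folds from 0.673 to 1.05. Without hypoxia + DMSO replicate 1 it was -0.11, with folds from 0.770 to 1.11, and with sample quality weights it was -0.09. Both stimuli against neither gave -0.31 ± 0.16 (edgeR adjusted p = 0.285), and -0.26 without hypoxia + ITE replicate 6. A rise of FKBP5 of more than 1.24-fold with ITE in normoxia lay outside the interval.

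FKBP4 had a narrow range in 3 of the groups. It ran from 155 to 192 CPM in normoxia + DMSO, with a median of 174. The ranges were 149 to 187 CPM (median 170) in normoxia + ITE and 180 to 210 (median 186) in hypoxia + DMSO. In hypoxia + ITE it ran from 146 to 366 CPM (median 191). The value of 366 was that of replicate 6, and the next highest library of that group had 248 CPM. Its log2 fold change for hypoxia with ITE was 0.39 ± 0.15 (edgeR adjusted p = 0.143). The value was 0.18 without hypoxia + ITE replicate 6, 0.25 without the 3 doubted libraries and 0.14 with sample quality weights.

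TSC22D3, which encodes the anti-inflammatory leucine zipper protein GILZ, was low. It ran from 10.2 to 15.1 CPM in normoxia + DMSO, with a median of 13.7. The ranges were 10.9 to 21.8 CPM (median 14.1) in normoxia + ITE, 9.32 to 23.3 (median 14.7) in hypoxia + DMSO and 12.6 to 19.9 (median 17.5) in hypoxia + ITE. All groups overlapped. Its log2 fold change was 0.15 ± 0.19 with ITE in normoxia (edgeR adjusted p = 1) and 0.23 ± 0.20 with hypoxia in DMSO (adjusted p = 0.775). The first was 0.015 without normoxia + ITE replicate 2, the highest library of its group, and the second was 0.06 without hypoxia + DMSO replicate 1. Both stimuli against neither gave 0.43 ± 0.19, a fold of 1.35 (1.03 to 1.77) that did not pass the test (edgeR adjusted p = 0.215), and 0.43 again without hypoxia + ITE replicate 6. It passed with sample quality weights (0.62, limma adjusted p = 0.00185). The counts behind these values were 16 in the shallowest library and 17 in hypoxia + ITE replicate 1, so small changes of TSC22D3 could not be resolved.

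SGK1, a kinase that controls sodium transport and cell survival, had its lowest mean where both stimuli were given. It ran from 49.3 to 61.8 CPM in normoxia + DMSO, with a median of 51.8. Its range in normoxia + ITE was 37.1 to 62.1 CPM, with a median of 44.3. It ran from 30.2 to 71.5 CPM (median 43.1) in hypoxia + DMSO and from 7.97 to 57.2 (median 31.7) in hypoxia + ITE. In that last group 5 of the 6 libraries lay below all those of normoxia + DMSO, and replicate 1 at 57.2 lay among them.

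The log2 fold change of SGK1 with both stimuli against neither was -0.78 ± 0.24, a fold of 0.583 (0.412 to 0.825), and it missed the threshold (edgeR adjusted p = 0.0863). It passed in DESeq2 (-0.75, adjusted p = 0.0431) and with the replicate number as a block (-0.84, edgeR adjusted p = 0.0434). It also passed without the 3 doubted libraries, which include hypoxia + ITE replicate 1 (-0.75, edgeR adjusted p = 0.0106). It did not pass without hypoxia + ITE replicate 6 alone (-0.62, edgeR adjusted p = 0.0593), and over all alternatives the adjusted p ran from 0.000198, with sample quality weights, to 0.343. When 1 library at a time was left out, it passed only without hypoxia + ITE replicate 1 (-0.94, edgeR adjusted p = 0.0235). Each step alone was smaller, at -0.21 ± 0.24 with ITE in normoxia, -0.21 ± 0.24 with hypoxia in DMSO, -0.57 ± 0.25 for hypoxia with ITE and -0.57 ± 0.25 for ITE in hypoxia on the log2 scale, none past the threshold. Without hypoxia + ITE replicate 6 the last 2 were -0.41 and -0.39. With hypoxia in DMSO the value was -0.39 without hypoxia + DMSO replicate 1 and -0.11 without replicate 4 of that group, and with sample quality weights it passed (-0.47, limma adjusted p = 0.0273). The direction was downward in all 5 comparisons, which share groups with each other.

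DUSP1, a phosphatase that inactivates MAP kinases, rose with hypoxia. In normoxia + DMSO it ran from 114 to 164 CPM, with a median of 132. Its range in hypoxia + DMSO was 217 to 290 CPM with a median of 254, so the groups did not overlap. The log2 fold change with hypoxia in DMSO was 0.86 ± 0.15, a fold of 1.82 (1.48 to 2.24), and it passed the test (edgeR adjusted p = 0.00045). It passed under every alternative run for that comparison and without any 1 library, with values from 0.77 (scaled by library size alone) to 0.92. Among the 5 tested genes other than NR3C1, DUSP1 was the 1 called higher and 0 were lower, where 1.16% of all tested genes were called higher and 0.136% lower.

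With ITE present DUSP1 also rose with hypoxia. It ran from 95.2 to 149 CPM (median 117) in normoxia + ITE and from 105 to 215 (median 191) in hypoxia + ITE, where replicate 6 at 105 was the 1 library that overlapped. The log2 fold change was 0.60 ± 0.15, a fold of 1.52 (1.24 to 1.87, edgeR adjusted p = 0.0216). It was again 1 of 5 genes higher and 0 lower, beside 1.89% of all tested genes higher and 0.46% lower. The call was lost when normoxia + ITE replicate 2, 4 or 6 was left out (highest edgeR adjusted p = 0.0708). It was also lost in a fit of the compared groups only, without a replicate block (edgeR adjusted p = 0.183) and with it (adjusted p = 0.229). Scaling by library size alone lost the call too (0.52, edgeR adjusted p = 0.142). It held without hypoxia + ITE replicate 6 (0.72, edgeR adjusted p = 0.000257) and without the 3 doubted libraries (0.71, adjusted p = 0.000813).

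DUSP1 had lower means with ITE at both oxygen levels, and neither difference passed the test. In normoxia the log2 fold change was -0.22 ± 0.15 (edgeR adjusted p = 1) and the groups overlapped. It passed in 1 alternative, a fit of both groups alone with the replicate number as a block (-0.23, edgeR adjusted p = 0.00684), where 2.22% of tested genes were called. In hypoxia it was -0.48 ± 0.15, a fold of 0.716 (0.582 to 0.880), and every hypoxia + ITE library lay under every hypoxia + DMSO library. The margin was narrow, with 215.5 CPM in hypoxia + ITE replicate 5 and 217.1 in hypoxia + DMSO replicate 2. The latter is the shallowest library, with 158 counts of DUSP1. Such groups without overlap and lower were found for 0.128% of tested genes. The unadjusted p was 0.0026, but the adjusted p was 0.494 in edgeR, and 9.56% of tested genes had an unadjusted p under 0.05 in that comparison. The value was -0.37 without hypoxia + ITE replicate 6. The difference between both ITE effects was -0.26 ± 0.21 (edgeR adjusted p = 0.915), and it was -0.15 without that library and -0.08 with sample quality weights. Against cells with neither stimulus, DUSP1 with both differed by 0.38 ± 0.15 (edgeR adjusted p = 0.147), which passed without hypoxia + ITE replicate 6 (0.49, adjusted p = 0.0161).

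In the remaining comparisons 0 of the 5 genes were called in either direction by edgeR. The share of all tested genes called was 0.0511% for ITE in normoxia, 0.0597% for ITE in hypoxia, 2.32% for both stimuli against neither and 0% for the interaction. At an unadjusted p under 0.05 the numbers were 0, 2, 4 and 0 of 5, beside 1.46%, 9.56%, 19.3% and 3.19% of all tested genes. For both stimuli against neither, DESeq2 called 1 of the 5, SGK1, beside 5.51% of all tested genes, and for the other 3 comparisons it called 0.

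Across the 24 libraries, the levels of the response genes followed NR3C1 loosely or not at all. These correlations are a description, since libraries share groups and differ in depth. Spearman's rho of log2 CPM with NR3C1 was 0.44 for DUSP1, 0.18 for FKBP5, 0.02 for TSC22D3, -0.14 for SGK1 and -0.17 for FKBP4. Among 10064 genes with a mean of at least 5 CPM, DUSP1 ranked 784.5 and FKBP5 2802.5 by this measure. Without hypoxia + ITE replicate 6 the values were 0.39 for DUSP1, 0.09 for FKBP5, 0.07 for TSC22D3, -0.28 for SGK1 and -0.07 for FKBP4.

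The genes whose pattern was most like that of NR3C1 were CLIC4 (rho 0.88), MTUS1 (0.85), PARP8 (0.85), CAST (0.83) and ADD3 (0.83) over 24 libraries. Without hypoxia + ITE replicate 6, CLIC4, MTUS1 and PARP8 were still among the first 5. With Pearson's correlation 1 of them, MTUS1, was.

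**Figure D3:**
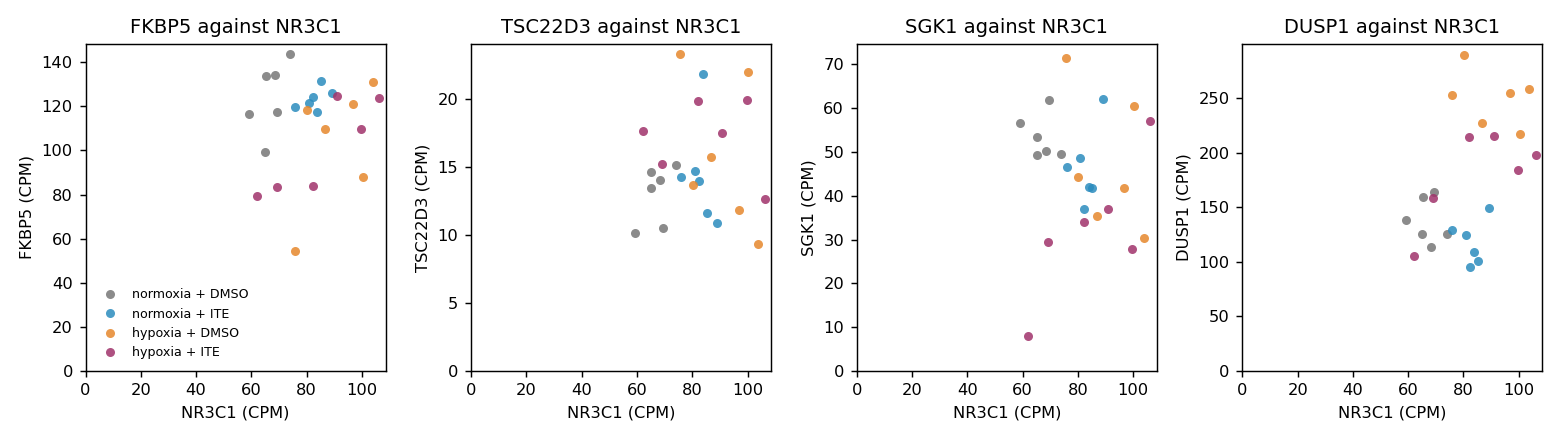
Level of FKBP5, TSC22D3, SGK1 and DUSP1 (vertical axes, CPM) against that of NR3C1 (horizontal axes, CPM) in 24 libraries coloured by group. Spearman's rho is 0.18, 0.02, -0.14 and 0.44 in that order; the hypoxia + DMSO libraries lie above the others for DUSP1, and hypoxia + ITE replicate 6 is the lowest point for SGK1.

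The wider pathway was read from 5 lists with 87 genes in the files besides NR3C1, of which 65 passed the filter. The others were too low to test, among them HSD11B1 and HSD11B2, the enzymes that activate and inactivate cortisol, and the classical liver targets TAT, PCK1 and G6PC. With ITE in normoxia 0 of 65 were called by edgeR, beside 0.0511% of all tested genes. There 4 had an unadjusted p under 0.05, beside 1.46% of all. Of these, 2 were lower, both from the list of targets that the receptor raises. The other 2 were higher, both from the list of inflammatory genes that it lowers. DESeq2 called 1, CEBPB, beside 0.119%. With hypoxia in DMSO 3 were higher and 0 lower, beside 1.16% and 0.136% of all tested genes. For hypoxia with ITE 4 were higher and 0 lower, beside 1.89% and 0.46%. For ITE in hypoxia 0 were called, and 7 had an unadjusted p under 0.05, near the share of 9.56% of all tested genes. For both stimuli against neither 2 were higher and 1 was lower, beside 2.32% of all called in either direction. The interaction gave 0, with 1 gene at an unadjusted p under 0.05, beside 3.19% of all. DESeq2 also gave 0 for ITE in hypoxia and for the interaction.

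Every called gene came from the list of 40 targets that the receptor raises, 27 of them tested. The median log2 fold change of these 27 was -0.04 with ITE in normoxia and 0.12 with hypoxia in DMSO, beside 0.00011 and -0.0033 for all tested genes. DDIT4, an inhibitor of mTORC1, rose from 23.5 to 41.1 CPM (lowest and highest library, median 31.7) in normoxia + DMSO to 330 to 414 (median 373) in hypoxia + DMSO, an 11.5-fold change (log2 3.53 ± 0.17, edgeR adjusted p = 8.14e-15). ANGPTL4, an inhibitor of lipoprotein lipase, rose 5.29-fold in the same comparison (2.40 ± 0.56, edgeR adjusted p = 0.021) from a mean of 1.35 CPM, with 0 counts in 1 or more libraries of hypoxia + DMSO. Without normoxia + DMSO replicate 1, the number of pathway genes called there fell from 3 to 2, DUSP1 among them.

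DDIT4, ANGPTL4, CEBPB, IGFBP1 and PDK4 were among the targets marked because hypoxia is also known to raise them or because they answer to stress. The marked genes stayed in the list of raised targets, and those tested are part of all its counts and medians given here. IGFBP1 and PDK4 were not tested. For hypoxia with ITE, DDIT4 rose 8.80-fold and ANGPTL4 11.1-fold (edgeR adjusted p = 1.19e-13 and 0.00156), and with them IRS2, an adaptor of the insulin receptor, from 33.0 ± 4.6 to 53.7 ± 11.1 CPM (SD, n = 6), a log2 fold change of 0.70 ± 0.16 (edgeR adjusted p = 0.0154). The fold of ANGPTL4 started from a mean of 0.73 CPM in normoxia + ITE, with 0 counts in 1 library. Its level in hypoxia + ITE ran from 0.74 to 18.8 CPM. With both stimuli against neither, DDIT4 rose 8.94-fold and ANGPTL4 5.33-fold (edgeR adjusted p = 9.22e-14 and 0.0147). Without hypoxia + ITE replicate 6 the folds for hypoxia with ITE were 9.26 for DDIT4, 8.17 for ANGPTL4 and 1.51 for IRS2, and those with both stimuli 9.47 for DDIT4 and 3.89 for ANGPTL4, all still called (highest edgeR adjusted p = 0.0364). CEBPB, a transcription factor of inflammation and metabolism, fell with both stimuli against neither. Without normoxia + DMSO replicate 2, 1 pathway gene was called in that comparison, so ANGPTL4 and CEBPB did not both pass there.

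CEBPB ran from 48.7 to 58.7 CPM in normoxia + DMSO, with a median of 52.5. The ranges were 28.2 to 39.5 CPM (median 35.5) in normoxia + ITE, 40.0 to 59.1 (median 46.6) in hypoxia + DMSO and 23.9 to 48.0 (median 35.8) in hypoxia + ITE. Both ITE groups lay entirely below normoxia + DMSO. Its log2 fold change was -0.53 ± 0.13 for both stimuli against neither (edgeR adjusted p = 0.026) and -0.59 ± 0.13 with ITE in normoxia, where it did not pass the test (edgeR adjusted p = 0.144). Without hypoxia + ITE replicate 6 the values were -0.45 (edgeR adjusted p = 0.0233) and -0.59, and the second then passed (edgeR adjusted p = 0.00968), although that library is in neither of its groups and enters through the shared estimate of the spread. Groups without overlap and lower made up 0.213% of tested genes for ITE in normoxia and 0.801% for both stimuli against neither.

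The other lists held no called gene in any of the 6 comparisons. The 14 genes of the receptor complex list, all tested, had a median log2 fold change of 0.03 with ITE in normoxia and 0.13 with hypoxia in DMSO. They include NR3C2, a separate steroid receptor and not a partner, with group means of at most 1.56 CPM. Their most abundant members, HSPA8, HSP90AA1 and HSP90AB1, had log2 fold changes of 0.13, 0.21 and 0.16 with hypoxia in DMSO. The 12 coregulators, all tested, had medians of -0.0030 and -0.13, and SMARCA4 and NCOR1, among the most abundant of them, had group means of at least 97.8 CPM. Of 8 genes of steroid metabolism and export 4 were tested, of which ABCB1, a drug and steroid exporter, was the most abundant with group means from 143 to 162 CPM. SRD5A1 and H6PD followed, with group means of at most 25.6 and 15.9 CPM.

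Among 14 inflammatory genes that the receptor lowers 9 were tested, and their median log2 fold change was 0.07 with ITE in normoxia and 0.01 with hypoxia in DMSO. LIF, ICAM1 and IL8, the most abundant of them, had log2 fold changes of 0.07, 0.04 and 0.21 with ITE in normoxia and of 0.01, -0.22 and -0.06 with hypoxia in DMSO, none past the threshold. Among the more abundant raised targets, MT2A and MT1E, which are metallothioneins and share sequence with other family members, had log2 fold changes of 0.23 and 0.25 with hypoxia in DMSO.

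**Figure D4:**
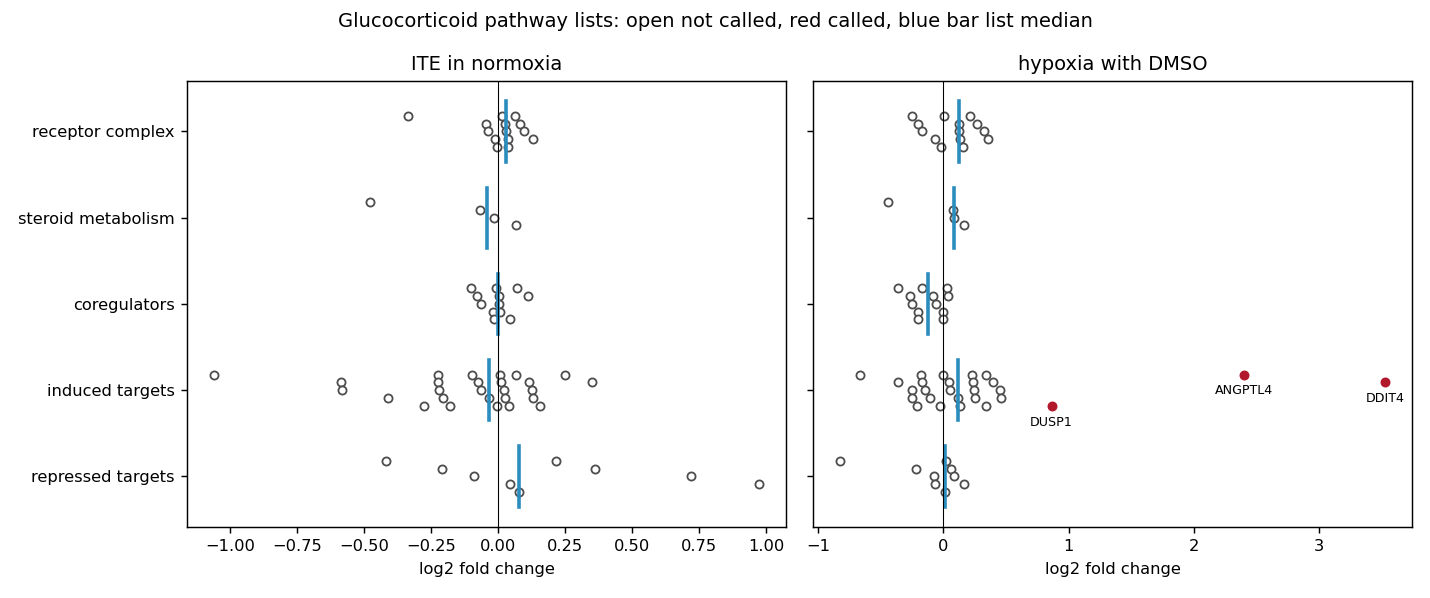
Log2 fold change (horizontal axes, with a different range in each panel) of every tested gene of the 5 pathway lists without NR3C1 (rows), for ITE in normoxia and hypoxia with DMSO; circles are genes, red those with an adjusted p under 0.05, and blue bars the list medians. The red circles are DUSP1, ANGPTL4 and DDIT4, all with hypoxia and all among the raised targets.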

How the data were processed

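RNA of 24 libraries of RCC4+VHL cells was analysed, with group and replicate taken from the labels. The authors deposited raw counts per gene symbol, not normalised. Per the labels and the study's methods, poly-A RNA went through a directional kit, and reads were trimmed with Trim Galore 0.3.3, aligned to GRCh37 with HISAT2, freed of fragments that did not map uniquely with Picard 2.0.1 and counted with HTSeq 0.5.4p3. The strand setting of the counting is not given in the sources used here, so genes that overlap on opposite strands may share reads. The study calls the replicates independent.

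Counts were analysed with R 4.3.3 and edgeR 4.0.16 (filterByExpr, minimum count 10; TMM; quasi-likelihood test; 1 mean per group over all 24 libraries). Of 23106 symbols, 11735 were tested, and two-sided p-values were adjusted over all of them (Benjamini-Hochberg, called under 0.05). CPM are counts over the TMM-scaled library size. Lengths came from the GENCODE annotation of GRCh37, and promoters from RefSeq. Total counts ran from 770094 to 93851342, with 3 counts worth 0.029 to 4.12 CPM. Across 60 pairs of libraries within groups, squared differences were at least 3.85 times the counting variance, so no library was a copy.

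The 7 genes and the lists were chosen with earlier results of these data known. The text names all 7 genes, list genes past the threshold and the 3 most abundant genes per list. It also names NR3C2, a check gene per stimulus and the 5 genes most correlated with NR3C1. Untested genes and other cell-type markers are named as such. Of the most abundant list genes, 2 are not reported here. Alternatives used DESeq2 1.42.0, limma 3.58.1 with sample quality weights, other scalings, filters and designs, and each library left out. The 3 doubted libraries were chosen after seeing the data. The pipeline was tested on simulated data.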

Additional observations from a re-analysis of the deposited data

Results flagged for a closer look

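With 6 libraries per group, the highest or lowest library was compared with its nearest neighbour by Dixon's test in 32 groups of values, where chance gives about 1.6 flags, and 5 were found. TSC22D3 was 21.8 CPM in normoxia + ITE replicate 2, where the next library had 14.7. The median absolute difference of log2 CPM from the group was 0.75 in hypoxia + ITE replicate 6, where the next library of the group had 0.34. Total counts stood apart at the upper end in 3 groups, with 48357647 in normoxia + ITE replicate 5, 37995687 in hypoxia + DMSO replicate 5 and 87404330 in hypoxia + ITE replicate 4. The levels of NR3C1, FKBP5, FKBP4, SGK1 and DUSP1 held no such library in any group.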

How the results depend on the processing

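The 36 log2 fold changes of the 6 tested genes were recomputed under 10 alternative analyses and under 2 added after seeing the data, with the 3 doubted libraries left out and with scaling by library size alone. Of 386 values with a test, 365 kept their direction and their side of the threshold, and the other 34, of NR3C1 where no test was made, all kept their direction. Reversals were small. FKBP5 with ITE in normoxia became 0.0030 with a replicate block and 0.027 with sample quality weights, and with those weights NR3C1 and FKBP4 became 0.0077 and -0.042 for ITE in hypoxia and FKBP4 -0.0034 for the interaction. NR3C1 for hypoxia with ITE became -0.065 with scaling by library size alone, which moved the median of all tested genes with both stimuli against neither from 0.016 to -0.13 and the share of its calls that were higher from 77.2% to 55.2%. Leaving out 1 library at a time also turned FKBP5 with ITE in normoxia (-0.064 to 0.039), NR3C1 for hypoxia with ITE (-0.032 to 0.098), FKBP5 for ITE in hypoxia (-0.19 to 0.019), and FKBP5 (-0.19 to 0.026) and TSC22D3 (-0.078 to 0.21) for the interaction.

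The number of called genes among the 5 other than NR3C1 moved as follows. With the compared groups only and a replicate block it was 1 for ITE in normoxia (DUSP1), and for hypoxia with ITE it was 0 with the compared groups only, with or without the block, and with library size alone. For both stimuli against neither it was 1 in DESeq2 and with the replicate block over all libraries, and 2 without the doubted libraries. Sample quality weights gave 2 for hypoxia with DMSO and 2 for hypoxia with ITE (DUSP1 and SGK1 in both), and 3 for both stimuli (DUSP1, SGK1 and TSC22D3), in a fit that called 7.16%, 5.16% and 6.14% of all tested genes. Leaving out 1 library gave 0 to 1 for hypoxia with ITE and 0 to 1 for both stimuli.

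Of the 65 pathway genes, ITE in normoxia called 1 in DESeq2 (0.119% of all tested genes), 1 with the compared groups only (0.261%), 8 with the replicate block in those groups (2.22%), 2 with weights (0.954%) and 1 without the doubted libraries (0.142%). Hypoxia with DMSO called 8 with weights (7.16% of tested genes). Hypoxia with ITE called 7 in DESeq2 (5.83%), 2 with the compared groups only (0.737%), 1 with the block in them (0.477%), 12 with weights (5.16%) and 2 with library size alone (1.47%), and 2 to 8 with 1 library left out (2 without normoxia + ITE replicate 4, 8 without hypoxia + ITE replicate 5). Both stimuli called 1 with the compared groups only (0.726%), 1 with the block in them (0.479%), 8 with weights (6.14%) and 5 without the doubted libraries (3.01%), and 1 to 4 with 1 library left out (1 without normoxia + DMSO replicate 2). The causes were not tested.

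Nothing in the labels says that equal replicate numbers mark a shared batch. Of 36 same-numbered pairs 21 correlated above 0.1 in their deviations from the group means (range -0.18 to 0.43). The study states no pairing for its RNA-seq, so the block is an alternative only. The choice matters for ITE in normoxia. In a fit of those groups alone, 0.261% of tested genes were called without the block and 2.22% with it. In 21 of the 36 the library with the same number was the best match among the 6 of the other group. This is a hint from the data and not from the design. Depth limits TSC22D3 and KLF9 most.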
